A study of Mus musculus with 24 samples.

Results

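Expression of 10 genes of the fat cell programme was followed in stromal cells of mouse gonadal fat: the regulators Pparg, Cebpa, Cebpb, Cebpd, Klf15 and Zfp423, and the adipocyte genes Adipoq, Plin1, Fabp4 and Cidec. The genes were taken by name from 22180 genes that the array annotation names with a single symbol. Each of the 10 had 1 probe row, and all 10 passed the filter on dim genes, which kept 15496 genes.

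The cells came from male C57Bl/6 mice and were sorted alive by flow cytometry after collagenase digestion of the fat. Lean mice ate a normal diet (ND). Obese mice ate a high-fat diet with 60% fat (HFD). Weight loss (WL) mice ate the high-fat diet for 12 weeks and were then taken off it for 8 weeks. Adipose tissue macrophages lacking the integrin CD11c (CD11c- ATM) were measured on 2 arrays from ND, 3 from HFD and 2 from WL mice. CD11c+ ATM were measured on 3 HFD and 3 WL arrays. Adipose tissue dendritic cells (ATDC) had 2 ND and 3 HFD arrays. Preadipocytes (PA), from which fat cells form, had 3 ND and 3 HFD arrays. No CD11c+ ATM were purified from lean mice, where they are scarce. Per the series design, the ND and HFD samples were pools of several mice. Whether WL samples were pools is not stated in the labels. A p-value here thus reflects how far these samples scatter, and not how far single mice do. Neither the age of the mice nor the full sort gates were at hand.

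Fat cells form when a precursor switches on a chain of transcription factors. Cebpb and Cebpd, 2 members of the C/EBP family, act early and induce Pparg and Cebpa, which sustain each other's expression and switch on the genes of lipid storage. Zfp423 marks cells committed to the fat lineage, and Klf15 acts with the C/EBP factors. Several of these factors also work outside fat cells: Cebpa and Cebpb direct the myeloid lineage, Pparg is active in lipid-handling macrophages, and macrophages make the fatty acid carrier Fabp4. Adiponectin (Adipoq) and the lipid droplet coat protein Plin1 are, by contrast, regarded as products of fat cells.

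The stretches of RefSeq sequence below (build GRCm38.p6, 5′ to 3′ on the gene's strand) precede annotated transcription starts. They are shown because Pparg is the member that moved most with diet, because Cebpa moved with it within groups, and because Adipoq and Plin1 are adipocyte targets of that circuit with low signal here. Capitals mark the letters TTGCNNAA (a C/EBP type site), AGGTCA (a nuclear receptor type site), CCAAT or TATAAA, each searched on both strands. No 2 matches shown overlap.
Pparg, internal start, chr6:115421816-115422065, plus strand, 60922 bases from the first Pparg window: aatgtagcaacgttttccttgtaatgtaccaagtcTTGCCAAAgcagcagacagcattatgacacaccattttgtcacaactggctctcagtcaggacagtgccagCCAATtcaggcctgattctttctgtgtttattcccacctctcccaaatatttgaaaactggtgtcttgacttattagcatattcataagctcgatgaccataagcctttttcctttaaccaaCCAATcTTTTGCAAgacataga
Cebpa, chr7:35119043-35119292, plus strand: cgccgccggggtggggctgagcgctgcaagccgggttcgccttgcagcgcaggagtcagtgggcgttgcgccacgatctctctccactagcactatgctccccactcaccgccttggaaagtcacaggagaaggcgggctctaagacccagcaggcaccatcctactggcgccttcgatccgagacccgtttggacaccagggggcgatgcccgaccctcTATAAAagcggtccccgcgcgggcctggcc
Adipoq, chr16:23146286-23146535, plus strand: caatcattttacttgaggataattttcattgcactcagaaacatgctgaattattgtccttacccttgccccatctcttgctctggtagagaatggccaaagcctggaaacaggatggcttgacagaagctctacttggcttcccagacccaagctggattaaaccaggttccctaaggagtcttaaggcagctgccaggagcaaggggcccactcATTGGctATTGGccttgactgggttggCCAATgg
Plin1, chr7:79732905-79733026, minus strand, the part outside the annotated gene: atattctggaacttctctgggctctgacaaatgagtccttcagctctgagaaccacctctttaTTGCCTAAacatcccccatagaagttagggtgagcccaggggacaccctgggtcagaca
The internal Pparg window, which lies inside the gene's span of chr6:115360879-115490404, held 2 matches to TTGCNNAA and 2 to CCAAT. The other Pparg windows, not shown, held AGGTCA and no TTGCNNAA, and the second of them also held CCAAT and TATAAA. The stretch of Plin1 held 1 match to TTGCNNAA, that of Adipoq 3 to CCAAT and that of Cebpa 1 to TATAAA. The Plin1 stretch has only 122 bases. Its full window of 250 bases held a further TTGCNNAA match, 58 to 51 bases before the start, in the part inside the annotated gene. Over 32851 promoter windows of 250 bases, 9.56% held TTGCNNAA, 14% AGGTCA, 33.8% CCAAT and 12.4% TATAAA. Windows were found for 8 of the 10 members, the exceptions being Cebpd and Fabp4. A match is a run of letters, and no binding was measured. The array gives 1 value per gene for Pparg, so transcripts from its separate starts were not told apart.

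Levels are the deposited log2 values, with array medians from 2.96 to 3.15. The labels were set against marker lists. On single arrays the median of 14 macrophage markers ran from 9.11 to 10.3 in the 5 ATM groups, from 7.81 to 9.39 in ATDC and from 4.12 to 7.61 in PA. ATDC and ATM thus overlapped in this list. The median of 16 fibroblast and preadipocyte markers ran from 9.82 to 10.4 in PA, from 5.54 to 7.45 in ATDC and from 5.76 to 9.07 in ATM. Dendritic cell markers (12 genes) were at 8.17 to 8.82 in ATDC and at 5.35 or less elsewhere. Markers of mature fat cells outside the 10 genes had a low median in all groups: that of 9 of them stayed between 3.58 and 4.74. On each array 5 to 7 of the 9 exceeded the array median. The group means of leptin (Lep) stayed between 2.20 and 3.42. Car3, Retn and Plin4 of this list passed in comparisons given below. After the data were seen, 3 arrays were judged to stand apart from others of their group. They are HFD CD11c- ATM replicate 3 (fibroblast marker median 9.07), HFD ATDC replicate 1 (mast cell marker median 6.17, against 2.28 and 2.93 in the others) and WL CD11c+ ATM replicate 1 (mean correlation with its group 0.882, against 0.913 and 0.917). Replicate 1 also had the highest mast cell marker median in HFD CD11c- ATM (5.77), HFD CD11c+ ATM (4.81) and HFD PA (3.67). Every WL array correlated less with its group (0.882 to 0.918) than any ND or HFD array did (0.936 or higher). The fit pooled the spread of all groups. All arrays measured bulk samples, in which fewer cells of a type and less RNA per cell cannot be told apart.

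**Figure D1:**
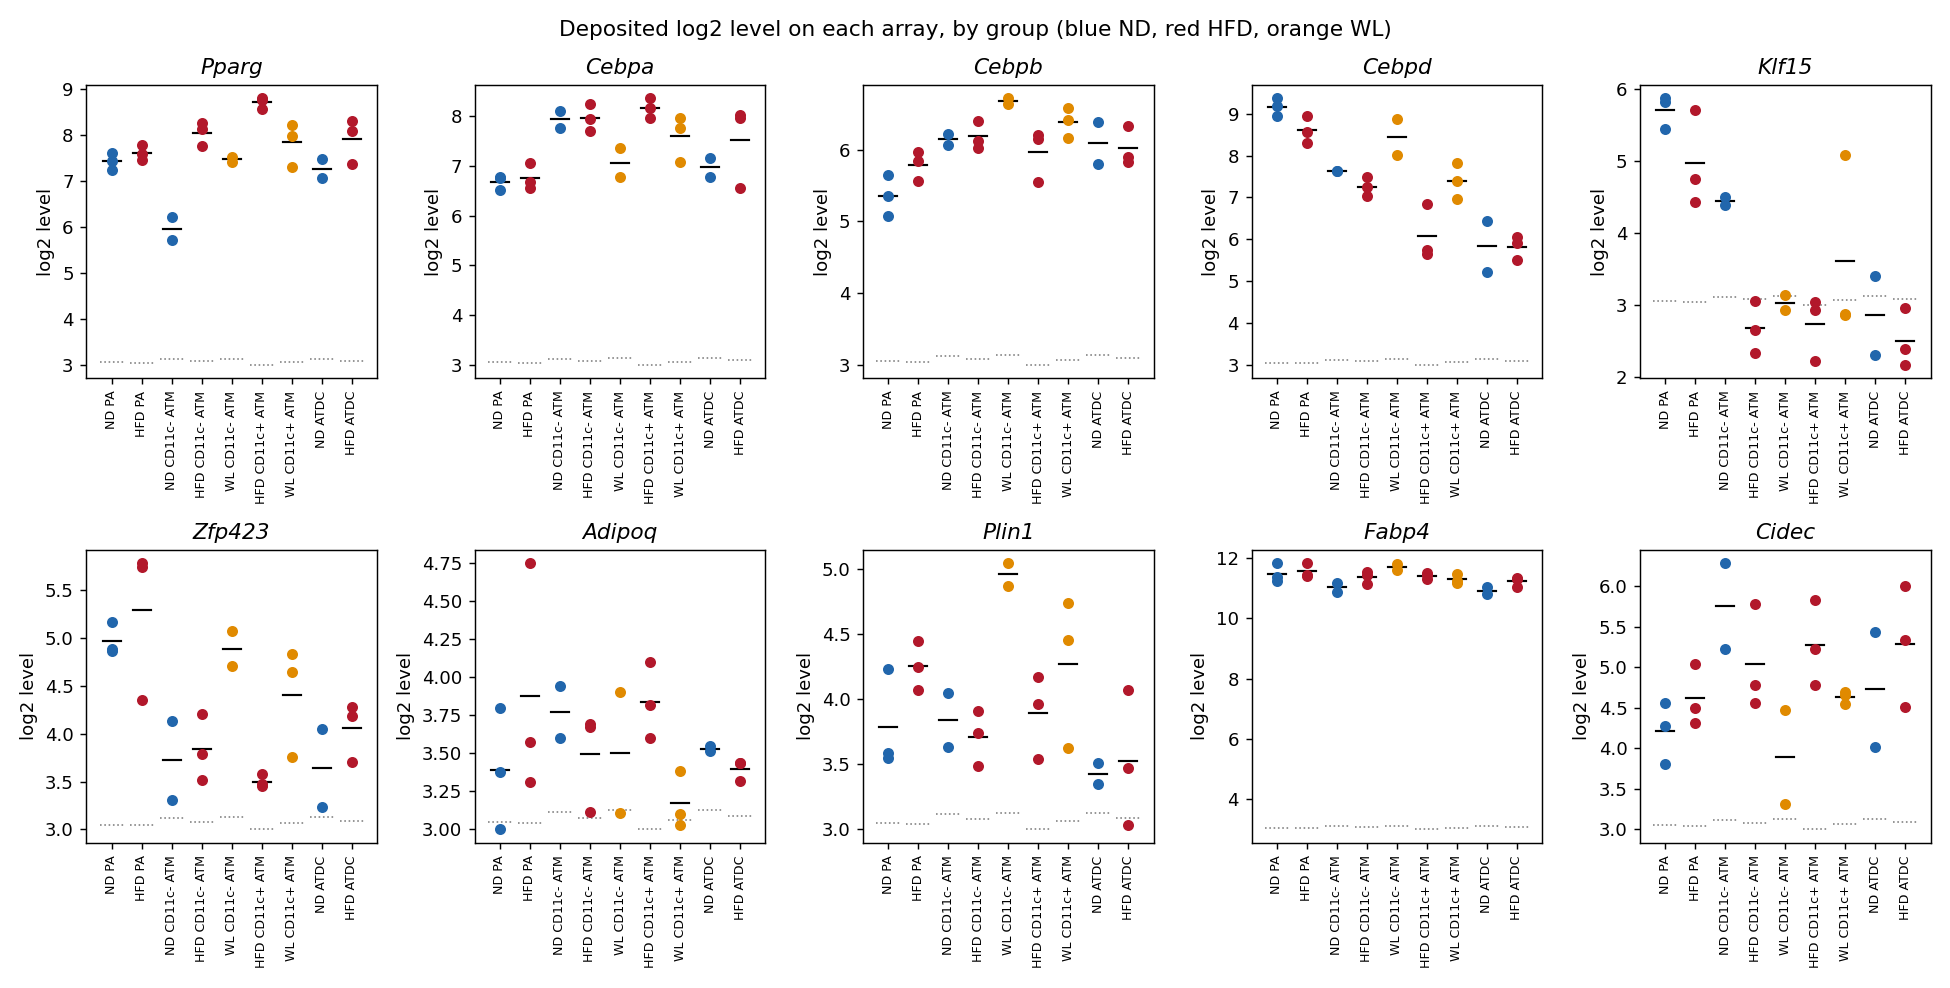
Deposited log2 level (vertical axis of each panel, scales differ) of the 10 genes on each of 24 arrays, by group. Points are arrays, black bars group means, dotted lines the mean array median. Pparg is lowest in ND CD11c- ATM, Cebpd and Klf15 have their highest group means in PA, and Fabp4 lies above 10.8 on all arrays.

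Among the storage and secretion genes, Fabp4 was near the top of the signal range in every population, and Adipoq was near the array median in every population. Fabp4 (chr3:10204342-10208616) ranged from 10.81 to 11.84 over the 24 arrays, and its mean percentile on the array was 99.7 or higher in all 9 groups. Its group means spanned 0.79 log2 units, from 10.92 in ND ATDC to 11.71 in WL CD11c- ATM. Adipoq, the fat cell hormone adiponectin (chr16:23146536-23157968), had group means between 3.17 and 3.88, and it exceeded the array median on 21 of 24 arrays. The highest single value of Adipoq was 4.75, on HFD PA replicate 2, where the other HFD PA arrays were at 3.31 and 3.57. Neither gene passed the test in any of 15 pairwise comparisons (limma, Benjamini-Hochberg adjusted p over 15496 genes). At an unadjusted p under 0.05, Adipoq had 1 and Fabp4 had 2 of the 15.

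Plin1, which coats the lipid droplet of fat cells (chr7:79721164-79732904), was dim in the same way, with group means between 3.43 and 4.96. Its highest values were 5.04 and 4.87, on both WL CD11c- ATM arrays. Cidec, a droplet fusion protein (chr6:113424634-113435760), had its highest group mean in ND CD11c- ATM (5.22 and 6.28) and its lowest in WL CD11c- ATM (3.32 and 4.48). In ND PA it was at 3.81, 4.56 and 4.28. Its spread within groups was among the widest of the members, with a pooled SD of 0.60 over the 9 groups (15 residual degrees of freedom).

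The diet comparison asked what differs between obese and lean mice within a sorted population. In CD11c- ATM, Pparg, the nuclear receptor at the head of the programme, rose 4.26-fold. Its partner Cebpa and the early factors Cebpb and Cebpd did not pass the test there, nor did the 4 adipocyte genes. Pparg (chr6:115360879-115490404) was at 5.71 and 6.20 in ND CD11c- ATM and at 8.27, 7.75 and 8.12 in HFD CD11c- ATM. The groups did not overlap, and both lean arrays lay below every other array of the series. The difference was 2.09 ± 0.29 (SE; 95% interval 1.48 to 2.70; adjusted p = 0.00113 by limma).

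That made 1 of 10 members called in this comparison, where 0.613% of all genes tested were called. The groups did not overlap for 3 members, and for 27.1% of all genes. The call held in 5 of 5 fits that left out 1 array (adjusted p up to 0.0465), and the difference was 2.05 without HFD CD11c- ATM replicate 3. In a fit of the 5 arrays alone the estimate stayed at 2.09 but its adjusted p was 0.165. Fibroblast and preadipocyte markers moved with the same contrast: 4 of 16 rose, 16 of 16 had a positive difference, and the list's median was 6.20 and 5.89 on the ND arrays against 7.16, 7.15 and 9.07 on the HFD arrays. Pparg itself was at 7.23 to 7.78 on the 6 PA arrays, below 2 of the 3 HFD CD11c- ATM arrays. Mast cell markers had a positive difference for 7 of 8 genes, none called by limma (2 at an unadjusted p under 0.05), with medians of 2.28 and 2.79 on the ND and 5.77, 2.32 and 4.43 on the HFD arrays. Dissociation stress genes had medians of 8.96 and 8.89 on the ND and 8.12, 8.28 and 8.15 on the HFD arrays. Fat cell markers outside the members had medians of 4.74 and 4.19 on the ND and 3.58, 3.64 and 3.92 on the HFD arrays. The part of fibroblasts, mast cells, fat cells and dissociation stress in the result was not tested.

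Klf15, a Kruppel-like factor of the fat cell programme (chr6:90461043-90491803), went the other way in the same macrophages without passing the test. It was at 4.39 and 4.50 in ND CD11c- ATM and at 2.65, 3.05 and 2.34 in HFD CD11c- ATM. The groups did not overlap, and every HFD array lay below its own array median, so the size is at least 1.37 log2 units. The difference of -1.76 ± 0.53 had an adjusted p of 0.176. Cebpd did not overlap either (difference -0.39, interval -1.20 to 0.42). For the other 7 members the groups overlapped, and the widest interval of the difference was that of Cidec (-1.77 to 0.34). Those of the other 6 were -0.74 to 0.79 for Cebpa, -0.51 to 0.58 for Cebpb, -0.73 to 0.96 for Zfp423, -1.01 to 0.46 for Adipoq, -0.82 to 0.56 for Plin1 and -0.13 to 0.81 for Fabp4.

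In ATDC no member passed the limma test between HFD and ND, where 0.258% of all genes were called. An unadjusted p under 0.05 by limma was seen for 1 member (Pparg) and for 8.62% of all genes. No overlap was seen for 2 members and for 22.1% of all genes. Pparg was at 7.06 and 7.47 in ND ATDC and at 7.37, 8.29 and 8.08 in HFD ATDC, with overlap. The difference was 0.65 ± 0.29 (adjusted p = 0.533).

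In PA, the fat cell precursors, no member passed either, where 2.59% of all genes were called. No member had an unadjusted p under 0.05 by limma, against 11.6% of all genes. Pparg was at 7.44, 7.61 and 7.23 in lean and 7.45, 7.78 and 7.59 in obese mice, an overlap, with a difference of 0.18 (95% interval -0.37 to 0.73). Cebpd was at 9.18, 8.94 and 9.38 in ND PA and at 8.30, 8.57 and 8.94 in HFD PA. The obese arrays lay just below the lean ones, which made Cebpd the 1 member without overlap (19.8% of all genes), and the difference of -0.56 ± 0.35 did not pass (adjusted p = 0.628). Of the 10 members, 8 had a positive difference, with a median of 0.25 log2 units against -0.02 for all genes tested.

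The diet difference of Pparg was itself compared between populations. It was smaller in PA than in CD11c- ATM by 1.91 ± 0.39 log2 units (estimate -1.91, adjusted p = 0.0427), 1 of 10 members where 0.277% of all genes were called. This call was lost in 8 of 11 fits that left out 1 array (adjusted p between 0.0308 and 0.229), with estimates between -2.16 and -1.66. It held only without ND PA replicate 1, HFD CD11c- ATM replicate 2 or HFD PA replicate 2. Against ATDC the estimate was -1.44 ± 0.41 and did not pass (limma, adjusted p = 0.295). There 0 of 10 members and 0.0581% of all genes were called. An unadjusted p under 0.05 by limma was seen for 1 member and for 7.25% of all genes.

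**Figure D2:**
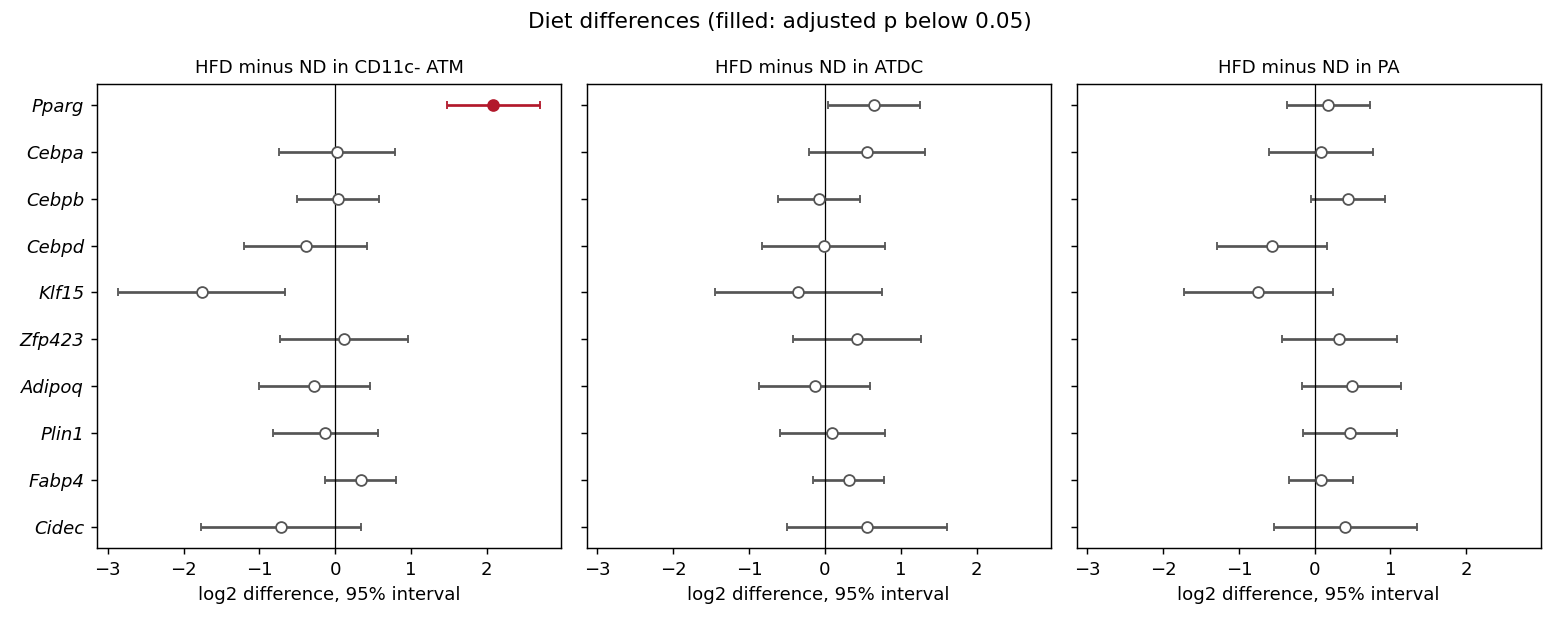
Log2 difference between HFD and ND (horizontal axis, with 95% interval of the limma fit) of the 10 genes in CD11c- ATM, ATDC and PA. Filled points passed an adjusted p of 0.05: Pparg in CD11c- ATM, at 2.09, is the only one.

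Other genes of the pathway followed the diet as follows. In CD11c- ATM, where 0.613% of all genes were called, 0 of 29 tested activators of adipogenesis and 0 of 27 inhibitors passed by limma. An unadjusted p under 0.05 by limma was seen for 3 of each and for 8.6% of all genes. Of 31 adipocyte function genes, the lipoprotein lipase gene Lpl rose (1.39, adjusted p = 0.0275) and the carbonic anhydrase gene Car3 fell (-2.56, adjusted p = 0.00724). Lpl held in 1 of 5 fits without 1 array (that without HFD CD11c- ATM replicate 2), and Car3 was lost without ND CD11c- ATM replicate 2 alone.

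In PA, where 2.59% of all genes were called, 4 function genes rose. They are the fatty acid transporter gene Cd36 (1.34), the perilipin gene Plin4 (1.59), the carrier gene Fabp5 (1.05) and the phosphatase gene Lpin1 (1.04), with adjusted p between 0.000547 and 0.0473. Among regulators, Sox9 (-2.03, adjusted p = 0.00286) and Wnt5a (-1.49, adjusted p = 0.00226), 2 of 27 listed inhibitors, fell, as did the coactivator gene Ncoa1 (-0.96, adjusted p = 0.0292). Cd36, Sox9 and Wnt5a held in 6 of 6 fits without 1 array. Fabp5 was lost without ND PA replicate 3 or HFD PA replicate 3, Plin4 in 4 of 6 fits (held without ND PA replicate 1 or HFD PA replicate 2), and Lpin1 and Ncoa1 in 5 of 6 (held without ND PA replicate 1). Macrophage markers moved with this contrast: 9 of 14 rose, and their median was 5.35, 4.37 and 4.12 on the lean against 6.15, 5.37 and 7.61 on the obese PA arrays. Cd36 was higher in CD11c- ATM than in PA in both diets, and the part of macrophage RNA in its rise was not tested. Endothelial markers moved too: 1 of 12 rose, 11 of 12 had a positive difference and 8 an unadjusted p under 0.05, and their part was not tested.

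The weight loss comparison asked whether macrophages of formerly obese mice differ from those of obese and of lean mice. In CD11c- ATM, Pparg of WL mice lay between the lean and the obese level, and it stayed above lean by 2.84-fold. Plin1 was the only member that passed against the obese level, and its call did not outlast the loss of any 1 array. The comparisons of WL with HFD and of WL with ND share the WL arrays.

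Pparg was at 7.53 and 7.40 in WL CD11c- ATM, above both ND arrays and below the 3 HFD arrays. Against ND it rose by 1.51 ± 0.32 (adjusted p = 0.0077), 1 of 10 members where 6.18% of all genes were called. The call was lost without ND CD11c- ATM replicate 1 (adjusted p = 0.0967). Against HFD Pparg did not overlap either, and the difference was -0.58 (95% interval -1.19 to 0.03, adjusted p = 0.311).

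Plin1 was at 5.04 and 4.87 in WL CD11c- ATM, above the 3.74, 3.91 and 3.49 of HFD CD11c- ATM and the 4.05 and 3.63 of ND CD11c- ATM. Against HFD it rose by 1.24 ± 0.33 (adjusted p = 0.0461), 1 of 10 members where 2.96% of all genes were called. In that comparison 8 members did not overlap, as did 33% of all genes. Each of 5 fits without 1 array lost the call, with estimates from 1.13 to 1.34 and adjusted p from 0.0715 to 0.192. Against ND the difference was 1.12 ± 0.36 (adjusted p = 0.0767).

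Cidec ran opposite to Plin1 in these macrophages, with 3.32 and 4.48 in WL against 5.22 and 6.28 in ND. The groups did not overlap, and the difference of -1.86 ± 0.55 had an adjusted p of 0.0517. It passed, with Pparg, without WL CD11c- ATM replicate 2, which made 2 members called. Cebpb, Cebpd, Zfp423 and Fabp4 were higher in WL than on any ND array of these macrophages, by 0.53, 0.81, 1.17 and 0.68, without passing. Cebpa and Klf15 were lower than on any ND array, with differences of -0.87 and -1.41 that did not pass either. In all, 9 of 10 members did not overlap between WL and ND, in a comparison where 48% of all genes tested did not.

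Markers of other cells were high on the same 2 arrays. Fibroblast and preadipocyte markers had medians of 8.83 and 8.27 there, with 11 of 16 higher than in ND, and all 8 mast cell markers rose to medians of 8.40 and 9.19 from 2.28 and 2.79. Dissociation stress genes had medians of 9.45 and 9.30, against 8.96 and 8.89 in ND and 8.12 to 8.28 in HFD. Fat cell markers outside the members had medians of 3.93 and 3.99, against 4.74 and 4.19 in ND and 3.58 to 3.92 in HFD. Of 12 endothelial markers 4 rose against ND and 2 against HFD, with medians of 4.62 and 5.52 on the WL arrays against 3.82 and 3.72 in ND and 3.73 to 4.20 in HFD. Of 10 mesothelial markers 5 were tested, with a positive difference for all 5 against ND and against HFD and none called by limma (2 and 3 at an unadjusted p under 0.05). Mesothelial marker medians were 3.64 and 3.26 on these WL arrays and below the array median on every other array. Over the 24 arrays Plin1 ran with the mesothelial markers at r = 0.694, the endothelial at 0.541 and the mast cell at 0.472. For dissociation stress genes r was 0.434, for fat cell markers outside the members 0.315 and for fibroblast markers 0.311. For macrophage markers r was 0.068 and for dendritic cell markers -0.51. The part of these cell types and of dissociation stress in the differences of Plin1 and Pparg was not tested.

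In CD11c+ ATM, Cebpd, a C/EBP factor induced early in adipogenesis (chr16:15887286-15889545), was higher after weight loss and Pparg lower, and neither passed. Cebpd was at 7.38, 7.81 and 6.95 in WL and at 5.75, 6.85 and 5.66 in HFD CD11c+ ATM. The groups did not overlap, and the difference was 1.30 ± 0.35 (adjusted p = 0.0661). It passed without WL CD11c+ ATM replicate 3 (adjusted p = 0.0319). Pparg was at 7.31, 8.22 and 7.97 in WL and at 8.57, 8.76 and 8.79 in HFD CD11c+ ATM, again without overlap, with a difference of -0.88 ± 0.26 (adjusted p = 0.0884). No member passed where 1.33% of all genes were called. An unadjusted p under 0.05 by limma was seen for 4 members and for 20.1% of all genes. No overlap was seen for 5 members and for 26.1% of all genes. In fibroblast and preadipocyte markers 3 of 16 rose, from medians of 5.76 to 6.83 in HFD to 7.38 to 8.26 in WL. Mast cell markers had a positive difference for 8 of 8 genes, none called by limma (6 at an unadjusted p under 0.05), and dissociation stress genes for 17 of 20, 1 of them called. Mesothelial markers had one for 5 of 5 tested, none called by limma (2 at an unadjusted p under 0.05). The part of these in the differences of Cebpd and Pparg was not tested.

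The 2 macrophage subsets were compared within a diet. In HFD mice no member passed between CD11c+ and CD11c- ATM, where 0.00645% of all genes were called. Of all genes, 6.43% had an unadjusted p under 0.05 by limma, as did 2 members. These members were Pparg, higher in CD11c+ ATM by 0.66 (95% interval 0.12 to 1.21), and Cebpd, with a difference of -1.17 (-1.90 to -0.45). They were also the 2 members without overlap (17.7% of all genes). Fibroblast and preadipocyte markers had medians of 6.83, 6.01 and 5.76 in HFD CD11c+ ATM against 7.16, 7.15 and 9.07 in HFD CD11c- ATM. Their part in the difference of Cebpd was not tested. In WL mice no member passed where 1.34% of all genes were called. Of all genes, 14.7% had an unadjusted p under 0.05 by limma, as did 1 member, Cebpd. Its difference was -1.07 ± 0.39 (95% interval -1.88 to -0.26), and Cebpd was among 5 members that did not overlap (24.3% of all genes). Mast cell markers were lower in CD11c+ ATM of WL mice for 4 of 8 genes, with a median difference of -3.09 over the list. Fibroblast and preadipocyte markers had medians of 7.67, 8.26 and 7.38 in WL CD11c+ ATM against 8.83 and 8.27 in WL CD11c- ATM. The part of either list was not tested. The change with weight loss was not found to differ between the subsets for any member, where 0.161% of all genes were called. No member had an unadjusted p under 0.05 by limma, against 6.74% of all genes.

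**Figure D3:**
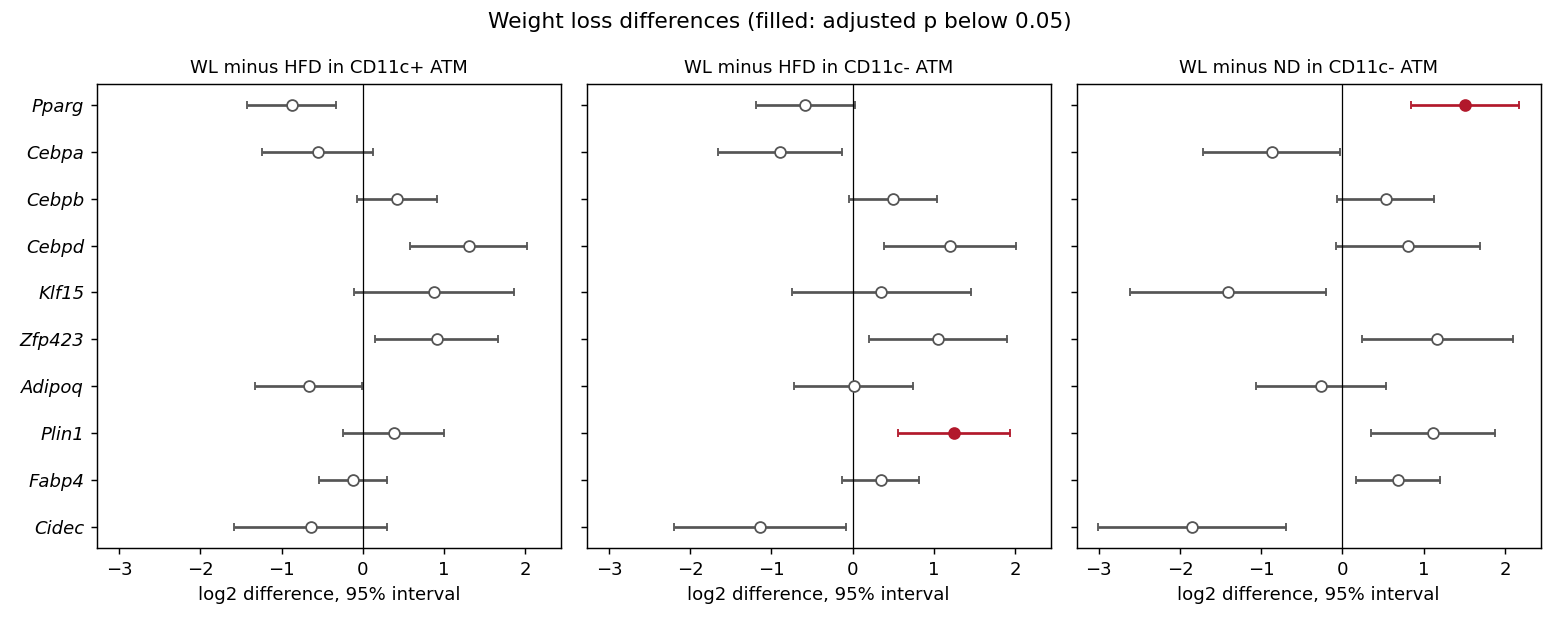
Log2 difference (horizontal axis, with 95% interval of the limma fit) of the 10 genes between WL and HFD in CD11c+ and CD11c- ATM, and between WL and ND in CD11c- ATM. Filled points passed an adjusted p of 0.05: Plin1 against HFD (1.24) and Pparg against ND (1.51), both in CD11c- ATM.

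In other genes of the pathway, WL CD11c- ATM had 2 of 29 activators and 8 of 27 inhibitors above ND, with none below, where 6.18% of all genes were called. Fibroblast and mast cell markers and dissociation stress genes were high on the WL arrays, and their part in these counts was not tested. The activators were the early B cell factor genes Ebf2 (3.68, adjusted p = 0.00083) and Ebf1 (2.71, adjusted p = 0.00388), which mark fat precursors and passed in all 4 fits without 1 array. The cytokine gene Il6 (4.89) and Gata2 (2.64), a factor that restrains adipogenesis and also marks mast cells, rose and kept their calls in all 4 such fits too. The fibroblast marker gene Pdgfra (4.12, adjusted p = 0.00875) rose as well, a call lost without ND CD11c- ATM replicate 2 or WL CD11c- ATM replicate 1. The count of inhibitors was 4 without ND CD11c- ATM replicate 1 and 6 without any other array. Of the function genes, Lpl (1.57) and G0s2 (2.31) were among 3 that rose, and the resistin gene Retn (-1.47) and Adipor2 (-1.32) fell. Lpl was lost only without ND CD11c- ATM replicate 1, and Retn was lost whichever of the 4 arrays was left out. G0s2 and Adipor2 were lost without ND CD11c- ATM replicate 2 or WL CD11c- ATM replicate 1. The count of function genes that rose was 1 without ND CD11c- ATM replicate 1 and 2 without any other array. Against HFD, where 2.96% of all genes were called, 4 inhibitors rose in WL CD11c- ATM, with Il6 at 5.96 and Gata2 at 2.72. There 0 of 29 activators passed by limma. An unadjusted p under 0.05 by limma was seen for 5 activators and for 17.7% of all genes. In CD11c+ ATM Il6 rose by 4.18 (adjusted p = 0.000627), a call that held in all 6 fits without 1 array. Dissociation stress genes had medians of 8.00, 9.07 and 8.58 in WL against 7.24, 8.01 and 7.40 in HFD CD11c+ ATM. Their part in the rise of Il6 was not tested in either subset.

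Between populations, the C/EBP factor Cebpd, the precursor factor Zfp423 and Klf15 had their highest group means in PA. Cebpa was lower in PA than in each of the 3 macrophage groups it was compared with, and Cebpb was lower in ND mice but did not pass in HFD mice. Cebpd and Zfp423 were higher in PA in 5 of 5 comparisons with an immune population, and Klf15 in 4 of 5. No WL group was part of these comparisons. Pparg was above the lean macrophages but below the obese CD11c+ macrophages.

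Cebpd was at 8.94 to 9.38 in ND PA and 8.30 to 8.94 in HFD PA, against 5.22 and 6.44 in ND ATDC and 5.50, 5.90 and 6.04 in HFD ATDC. No PA array overlapped with any ATDC array. Its difference was 3.33 ± 0.39 in ND (10.1-fold, adjusted p = 1.42e-06) and 2.79 ± 0.35 in HFD (6.91-fold, adjusted p = 3.41e-06). Against CD11c- ATM, at 7.64 and 7.64 in ND and 7.24, 7.03 and 7.49 in HFD, PA were higher by 1.52 ± 0.39 (adjusted p = 0.00603) and by 1.35 ± 0.35 (adjusted p = 0.00733). Against HFD CD11c+ ATM the difference was 2.52 ± 0.35 (adjusted p = 1.41e-05). Each of these 5 calls held in all fits that left out 1 array. WL CD11c- ATM, not compared with PA, were at 8.89 and 8.02 in Cebpd and overlapped with HFD PA.

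Klf15 was at 5.87, 5.44 and 5.81 in ND PA and 4.42, 4.75 and 5.71 in HFD PA, and it exceeded the array median on only 12 of 24 arrays. Among the immune groups both ND CD11c- ATM arrays and WL CD11c+ ATM replicate 1, at 5.08, stood above 4, and all others lay at or below 3.40. The difference between PA and ATDC was 2.85 ± 0.53 in ND (adjusted p = 0.000282) and 2.46 ± 0.47 in HFD, there at least 1.88 (adjusted p = 0.000433). Against HFD CD11c- ATM it was 2.28 ± 0.47, at least 1.89 (adjusted p = 0.00122), and against HFD CD11c+ ATM 2.23 ± 0.47 (adjusted p = 0.00119). Against ND CD11c- ATM it was 1.26 ± 0.53 and did not pass (adjusted p = 0.0973).

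Zfp423, a zinc finger factor of fat precursors (chr8:87661810-87962053), was at 4.89, 5.17 and 4.87 in ND PA and 5.79, 4.35 and 5.75 in HFD PA. In HFD macrophages it was at 3.52, 3.79 and 4.21 (CD11c-) and 3.45, 3.47 and 3.58 (CD11c+), with no overlap with PA, and the differences were 1.46 ± 0.36 (adjusted p = 0.00566) and 1.80 ± 0.36 (adjusted p = 0.000761). Both held in all fits without 1 array. WL CD11c- ATM, at 5.07 and 4.71, lay at the level of PA. The calls against ATDC and against ND CD11c- ATM, with differences of 1.24 to 1.33, were each lost in some fits. Against ND CD11c- ATM (adjusted p = 0.0293) the call held only without ND CD11c- ATM replicate 1. Against ND ATDC (adjusted p = 0.0165) it was lost without ND ATDC replicate 1 or ND PA replicate 2, and against HFD ATDC (adjusted p = 0.0135) without HFD ATDC replicate 2, HFD PA replicate 1 or HFD PA replicate 3.

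Cebpa, the partner of Pparg (chr7:35119293-35121928), was at 6.78, 6.76 and 6.51 in ND PA and 6.55, 7.06 and 6.68 in HFD PA. In HFD CD11c+ ATM it was at 7.97, 8.16 and 8.36, in HFD CD11c- ATM at 7.70, 7.94 and 8.25 and in ND CD11c- ATM at 7.77 and 8.11, all above PA. The differences of PA were -1.40 ± 0.33 (adjusted p = 0.00277), -1.20 ± 0.33 (adjusted p = 0.011) and -1.26 ± 0.37 (adjusted p = 0.0154). The first held in all 6 fits without 1 array. The second was lost without HFD CD11c- ATM replicate 3 or HFD PA replicate 1 (adjusted p up to 0.0519), and the third without ND CD11c- ATM replicate 2 or ND PA replicate 3. Against HFD ATDC, where replicate 1 was at 6.56 and the others at 7.97 and 8.02, the difference of -0.76 did not pass (adjusted p = 0.0964), and it was -1.23 (adjusted p = 0.00243) without that array.

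Cebpb, the early C/EBP factor (chr2:167688915-167690432), had the smallest spread of the C/EBP genes, with group means from 5.36 in ND PA to 6.68 in WL CD11c- ATM. In ND PA it was at 5.65, 5.36 and 5.07, below the 6.07 and 6.23 of ND CD11c- ATM and the 6.39 and 5.81 of ND ATDC. PA were lower by these estimates, -0.79 ± 0.26 (adjusted p = 0.0318) and -0.74 ± 0.26 (adjusted p = 0.0384). The first call held only without ND PA replicate 1. The second was lost without ND ATDC replicate 1, ND PA replicate 2 or ND PA replicate 3. In HFD mice the differences of PA in Cebpb were -0.40 against CD11c- ATM (adjusted p = 0.28), -0.18 against CD11c+ ATM (adjusted p = 0.672) and -0.23 against ATDC (adjusted p = 0.533), the last 2 with overlap.

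Pparg in ND PA exceeded ND CD11c- ATM by 1.47 ± 0.29 (adjusted p = 0.000713), and in HFD PA it was below HFD CD11c+ ATM, with a difference of -1.10 ± 0.26 (adjusted p = 0.00318). Neither pair of groups overlapped, and both calls held in all fits without 1 array. ND CD11c- ATM were also below ND ATDC in Pparg, by a difference of -1.31 ± 0.32 (adjusted p = 0.0126), and above them in Cebpd, by 1.81 ± 0.42 (adjusted p = 0.00916). The Pparg call was lost without ND CD11c- ATM replicate 1 or ND ATDC replicate 2, and the Cebpd call held only without ND ATDC replicate 2. Cidec was lower in ND PA than in ND CD11c- ATM, with a difference of -1.54 ± 0.51 (adjusted p = 0.0312), a call lost without ND CD11c- ATM replicate 2, ND PA replicate 1 or ND PA replicate 3.

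In counts, 6 of 10 members passed between PA and CD11c- ATM of ND mice (23.4% of all genes), 4 between PA and ATDC of ND mice (29.5%) and 4 between PA and CD11c- ATM of HFD mice (20.7%). The counts were 5 between PA and CD11c+ ATM of HFD mice (25.2%) and 3 between PA and ATDC of HFD mice (27.8%). Between CD11c- ATM and ATDC of ND mice 2 passed (8.27%), and between CD11c+ ATM and ATDC of HFD mice 0 did (4.16%). In the latter, 1 member had an unadjusted p under 0.05 by limma, as did 15.7% of all genes. The first count was 2 without ND CD11c- ATM replicate 2 or ND PA replicate 3, and the second was 2 without ND ATDC replicate 1 or ND PA replicate 2. Between CD11c- ATM and ATDC of ND mice the count was 0 without ND CD11c- ATM replicate 1 and 1 without any other single array. Between CD11c+ ATM and ATDC of HFD mice it was 1 (Pparg) without HFD ATDC replicate 2. In the order given, 8, 6, 6, 5, 5, 6 and 3 members did not overlap, against 50.5%, 53%, 38.5%, 47.5%, 42.1%, 49.2% and 25.4% of all genes. The comparisons share groups with each other.

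**Figure D4:**
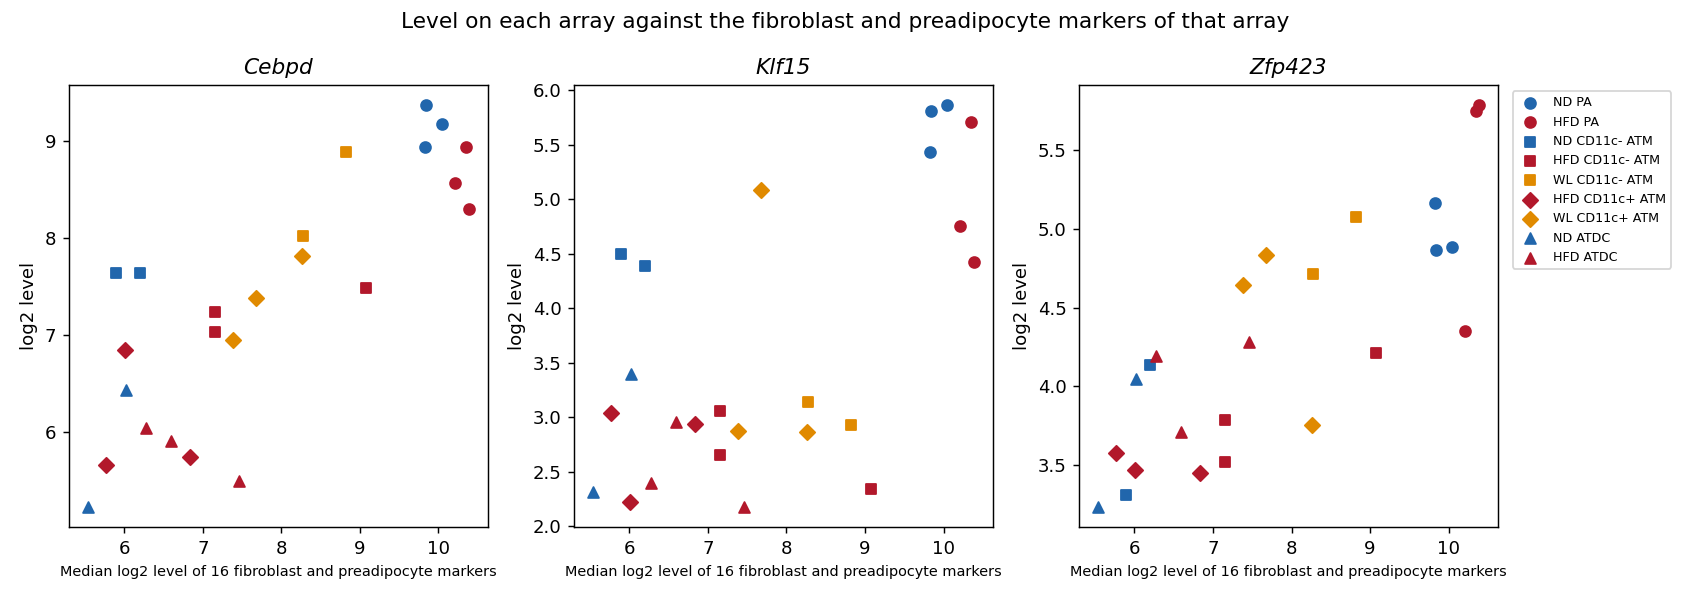
Log2 level of Cebpd, Klf15 and Zfp423 (vertical axes) against the median log2 level of 16 fibroblast and preadipocyte markers (horizontal axes) on each of 24 arrays, by group. Cebpd and Zfp423 are higher on arrays with more marker signal (r of 0.818 and 0.81), and Klf15 is high on the PA arrays, both ND CD11c- ATM arrays and 1 WL CD11c+ ATM array.

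Cebpd, Zfp423 and Klf15 ran with the fibroblast and preadipocyte markers across the 24 arrays, with Pearson's r of 0.818, 0.81 and 0.617. Cebpa and Cebpb ran with the 14 macrophage markers (r of 0.734 and 0.738), and Pparg with neither list (r of -0.03 and 0.12). These correlations describe 24 arrays in 9 groups that share sort gates and normalization. Both ND CD11c- ATM arrays departed from the first pattern. Cebpd was at 7.64 on both and Klf15 at 4.39 and 4.50, with marker medians of only 6.20 and 5.89.

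Other genes of the pathway were counted in the same 5 comparisons, where 20.7% to 29.5% of all genes were called. Of 29 activators tested, 6 to 11 were higher in PA and 1 or 2 lower, 8 to 13 in all, and the median of the list lay between -0.10 and 0.43. Ebf1 and Ebf2 led, 3.23 to 5.89 log2 units higher in PA, and the receptor gene Bmpr1a was 2.89 to 4.16 higher. Of 27 inhibitors 11 or 12 were higher in PA and 2 to 5 lower, with the growth factor receptor gene Pdgfra at 3.51 to 7.32 higher and the cytokine gene Tnf lower in all 5 (-2.76 to -3.19). Of 31 function genes 4 to 6 were higher in PA and up to 6 lower, with 6 each way against ND CD11c- ATM, and the list's median lay between -0.25 and 0.25. Of these, the lipolysis inhibitor gene G0s2 was 3.61 to 4.65 higher in PA. The differences of Ebf1, Ebf2, Bmpr1a, Pdgfra, Tnf and G0s2 between PA and each immune population held in every fit that left out 1 array. Cd36 was higher in CD11c- ATM than in PA of ND mice (PA minus ATM -2.06, adjusted p = 6.93e-07) and of HFD mice (-0.69, adjusted p = 0.0155). The HFD call was lost without HFD CD11c- ATM replicate 1 or HFD PA replicate 1.

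Within groups, Pparg and Cebpa deviated together. Over the 24 deviations from group means, which carry 15 degrees of freedom, Pearson's r was 0.825, the highest of the 45 pairs of members. It was 0.70 over the 22 arrays left without HFD ATDC replicate 1 and WL CD11c+ ATM replicate 1, the arrays farthest from their group in Pparg. Group means were not recomputed for this, so the other arrays of those groups kept positive deviations in both genes. The value of 0.70 is thus not free of the 2 arrays left out. On these 2 arrays Pparg lay 0.54 and 0.52 below its group mean (deviations of -0.54 and -0.52), and Cebpa deviated by -0.96 and -0.53. Over all 24 levels, group differences included, r was 0.387.

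**Figure D5:**
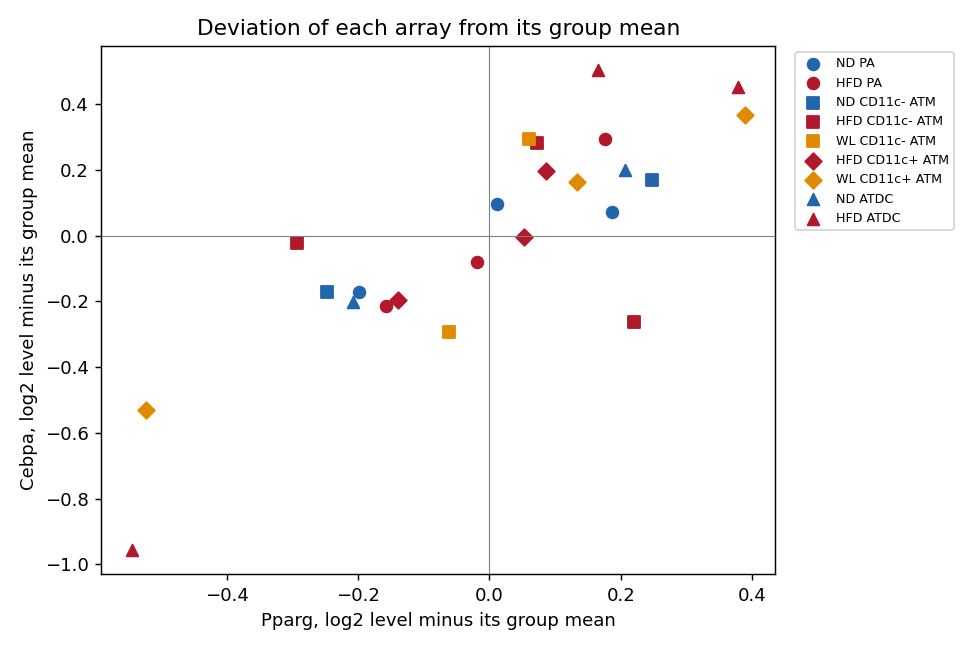
Deviation of Cebpa (vertical axis, log2 units) from its group mean against that of Pparg (horizontal axis) on each of 24 arrays. Arrays with lower Pparg than their group also have lower Cebpa in most groups (r of 0.825, and 0.70 without the 2 arrays at the lower left, with group means not recomputed).

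Genes whose levels ran most like each member over the 24 arrays were found by Pearson's r, a description over arrays of 9 groups. Pparg ran closest to the integrin gene Itgav (r = 0.872), Gnptab (0.855) and the mannose-6-phosphate receptor gene Igf2r (0.817). Cebpa ran closest to Hs6st1 (0.897), Rab3gap2 (0.872) and Cemip2 (0.871). For Cebpd these were the receptor gene Egfr (0.954), the chemokine gene Cxcl12 (0.933) and Serpinf1 (0.922).
Klf15 ran closest to Gnai1 (0.88), Mageh1 (0.878) and Gnb5 (0.876), and Zfp423 to Clip3 (0.904), Ak1 (0.891) and Amotl1 (0.869). For Cebpb they were Pisd-ps2 (0.857), Zmiz1 (0.823) and Cpeb2 (0.812). The adipocyte genes had looser company, with a top r of 0.793 for Plin1 (Apold1), 0.79 for Fabp4 (Gng11), 0.708 for Cidec (Rdh16f2) and 0.659 for Adipoq (Rab10os). Over the 9 group means these pairs had r of 0.938, 0.923, 0.755 and 0.267. Each gene named was the highest of all genes searched, and how high a top r unrelated genes would give was not tested.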

How the data were processed

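The values are log2 expression levels that the authors deposited for 41345 probe rows on 24 single-colour arrays. Per the submitters' processing notes, the tools were RMA, oligo and limma; no version or setting is stated there. RMA makes the distributions of arrays alike, so a shift shared by all genes is not seen. Scanner intensities were not used, so the array median stood in for background: where a whole group lay below it, a difference is given as at least the distance to it. Such a value bounds the estimate and takes no account of its error. The number of arrays limits the precision.

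The platform annotation gave 1 symbol for 23521 rows, several for 1814 and none for 16010. Rows with exactly 1 were used, and of several rows the one with the highest mean. Genes above the array's own median on 2 or more arrays entered the tests. Groups and replicate numbers came from the sample titles. One limma 3.58.1 fit (lmFit and eBayes, R 4.3.3) held all 24 arrays with 1 mean per group and 15 residual degrees of freedom. Two-sided p-values were adjusted by Benjamini-Hochberg over 15496 genes within each of 15 pairwise comparisons and 3 interactions, with a threshold of 0.05. The code was tested on simulated data. Alternatives were other filters, probe rows, scalings, variance models, array weights, the replicate number as a block, the compared groups alone and leaving out each array.

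The 10 members and all gene lists were chosen with earlier results of these data known. All members are named, with at most 4 genes per list and comparison (from the largest changes in each direction past the threshold), and up to 3 genes most like each member by Pearson's r, except antigen receptor segments, vomeronasal or olfactory receptors and gene models without a name. Cd36 between PA and macrophages was named after its values were seen. Genes not on the array under their listed symbol were not analysed here. Gene positions are those of RefSeq on GRCm38.p6. The array annotation names no build. Without probe sequences, cross-signal between related genes such as Fabp4 and Fabp5 could not be assessed.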

Additional observations from a re-analysis of the deposited data

Results flagged for a closer look

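The diet difference of Pparg differed between populations by a test of the difference itself. It was 2.09 log2 units in CD11c- ATM and 0.18 in PA, an interaction of -1.91 ± 0.39 (limma, Benjamini-Hochberg adjusted p = 0.0427). It held in 3 of 11 fits that left out 1 array of the 4 groups.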

How the results depend on the processing

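No difference of the 10 genes among those recomputed changed sign under any alternative. Counts of members called moved by more than 1.5 times as follows. For HFD minus ND in CD11c- ATM the count was 2 with array weights (Pparg and Klf15) and 0 with only the groups compared. For WL minus HFD in CD11c+ ATM it was 1 with arrays centred and 1 with array weights (Cebpd both times). For WL minus HFD in CD11c- ATM it was 0 with no filter, with an intensity trend, with array weights and with only the groups compared. For WL minus ND in CD11c- ATM it was 2 with the stricter filter, 3 with the trend, 4 without the 3 arrays that stood apart and 0 with only the groups compared. For CD11c- ATM minus ATDC in ND it was 4 without those 3 arrays, an alternative chosen after seeing the data, and 0 with only the groups compared. For CD11c+ ATM minus ATDC in HFD it was 1 with array weights, and for the interaction of diet in PA with CD11c- ATM it was 0 with no filter, with arrays centred and with only the groups compared. Fits with only the groups compared have fewer arrays to estimate the spread, and the other causes were not tested. Without 1 array, the counts ran from 0 to 1 (WL minus HFD in CD11c+ ATM, CD11c- ATM minus ATDC in ND, CD11c+ ATM minus ATDC in HFD and the PA interaction), 0 to 0 (WL minus HFD in CD11c- ATM), 0 to 2 (WL minus ND), 2 to 5 (PA minus CD11c- ATM in ND), 2 to 4 (PA minus ATDC in ND and in HFD) and 3 to 4 (PA minus CD11c- ATM in HFD). Centring moved the median of all genes by up to -0.25 (PA minus ATDC in ND). For the adipocyte function gene Gpd1, CD11c- ATM minus ATDC in ND went from 1.04 to -0.0716 when all its probe rows were averaged. Over the genes tested, the deviations of same-numbered arrays correlated at -0.13 to 0.25. Mast cell marker medians nevertheless ran with the replicate number in HFD mice. They were highest on replicate 1 in CD11c+ ATM (4.81), CD11c- ATM (5.77), ATDC (6.17) and PA (3.67), and lowest on replicate 2 in each (2.28 to 2.51). Whether same-numbered samples share mice is thus not settled, and the main fit did not pair them. With the replicate block the count for PA minus ATDC in ND was 3 in place of 4 (Cebpb was lost), and no other member's call changed.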
